A study of Mus musculus with 12 samples.

Results

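The genes described here carry the standard mouse symbols of the motile cilium and flagellum families: Cfap (cilia and flagella associated proteins), Dnah, Dnai, Dnal and Dnaaf (axonemal dynein chains and the factors that assemble them), Rsph (radial spoke proteins), Drc (nexin-dynein regulatory complex subunits) and Tekt (tektins), together with Ttc21a and Ttc25. Members were chosen by symbol alone, whatever their level. The deposited tables listed 70 of them among 28342 genes in the cochlea and 68 among 24726 genes in the vestibule. Of these, 58 in the cochlea and 64 in the vestibule had at least 1 CPM (a read count scaled to the library total) in at least 3 of the 6 libraries of the organ and were tested. Genes of the same structures under other names, such as Hydin or Ccdc39, lie outside these families and are given separately as fixed lists.

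Ribosome-bound RNA was pulled down with an HA antibody from neonatal mouse inner ears, at postnatal day 0 to 1. Every mouse was RiboTagHA/HA, a genotype whose cells make an HA-tagged ribosomal protein once Cre has acted in them, and Cre came from the Gfi1 locus. Heterozygotes were Gfi1Cre/+;RiboTagHA/HA and mutants were Gfi1Cre/Cre;RiboTagHA/HA, with 3 libraries for each genotype in each of the 2 organs and 12 in all. The samples were labelled as enriched for hair cells in the cochlea and for vestibular cells in the vestibule. Gfi1 encodes a zinc finger repressor of hair cells and blood cells, so the tag can also mark Cre-expressing cells that are not hair cells. The mutants carried 2 copies of Cre and the heterozygotes 1, and the effects of Cre dose and of losing the unmodified Gfi1 copy cannot be told apart. The series calls the triplicates independent biological replicates, and the sources used here do not say whether animals were pooled. Cochlear and vestibular libraries were made with different kits, so levels were compared within an organ only, and a difference between organs in the size of a genotype change cannot be told apart from a difference between kits.

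A motile axoneme is a ring of doublet microtubules around a central pair, with outer and inner dynein arms, radial spokes and nexin-dynein regulatory complexes repeated along each doublet. Tektins and other microtubule inner proteins stiffen the doublets, and dynein arms are assembled in the cytoplasm by dedicated factors before they enter the cilium. Hair cells carry a single true cilium, the kinocilium, which has doublets of this kind. Cochlear hair cells lose it as they mature, while vestibular hair cells keep it. Foxj1 and the RFX factors are the best known transcriptional regulators of motile cilium genes.

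The totals behind the CPM values were 7531518 to 9363796 reads in cochlear libraries and 18951026 to 29370267 in vestibular libraries, so that 1 read was worth 0.107 to 0.133 CPM and 0.0340 to 0.0528 CPM. Gfi1 itself was at 165, 106 and 126 CPM in the cochlear heterozygotes and 75.1, 64.3 and 69.1 CPM in the mutants, and at 534, 449.8 and 483 and 236, 198 and 208 CPM in the vestibule. It was thus lower in every mutant library of both organs, by -0.90 and -1.19 on the log2 scale (limma adjusted p = 0.00355 and 0.00234), but still read; the sources used here do not say which part of Gfi1 the Cre allele removes. All 7 hair cell markers (Myo7a, Myo6, Pou4f3, Otof, Espn, Calb2, Lhx3) were detected in both organs. Their summed level was 3937 to 4668 CPM in the cochlear heterozygotes and 2777 to 3309 CPM in the mutants, with Otof, Myo7a and Espn called lower, and Myo6 and Calb2 as well in the fit with replicate numbers as blocks (limma adjusted p = 0.00916 and 0.00204). In the vestibule the sum was 8429.7 to 9050.0 CPM and 9077 to 9821 CPM, every mutant sum above every heterozygous one. None of the 7 was called there; with the block, Myo6, Pou4f3 and Lhx3 were higher (limma adjusted p = 0.00103, 0.00779 and 2.36e-06) and Calb2 was lower (0.0170). The 8 listed multiciliated epithelium markers summed to 32.9 to 40.0 CPM in cochlear heterozygotes and 20.1 to 26.2 CPM in mutants. Foxj1 alone was most of each sum, at 26.5 to 33.6 CPM and 13.3 to 16.2 CPM, so the lower sums need not describe the other markers. Of the 8 markers, Mcidas, Ccno, Tmem212 and Ccdc153 were at or near 0 in the cochlea, none above 1 CPM in any library. Only 4 of the 8 were tested there, and only Foxj1 was called, as lower. In the vestibule the sums, again mostly of Foxj1, were 323 to 432 CPM and 419 to 697 CPM. None of 4 tested markers was called there, and 2 were higher with the block. Secretory epithelium markers summed to 6.24 to 12.1 CPM in cochlear heterozygotes and 3.24 to 5.42 CPM in mutants, of which Muc5b was most. The 1 marker of this type tested in the cochlea was called lower (-1.18). Granulocyte markers fell (3 of 4 tested in the cochlea, 5 of 5 in the vestibule). Of the ganglion neuron markers, 3 of 6 tested in the cochlea and 3 of 5 in the vestibule were called higher in the mutants. With the block, 4 were higher in each organ and 1 was lower in the vestibule. The part of these shifts in the results below was not tested, and in such bulk pull-downs fewer cells of a type and less RNA per cell cannot be told apart.

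In the mutant cochlea, 17 of the 58 tested members were lower than in the heterozygotes and none was higher (limma on log2(CPM + 1), Benjamini-Hochberg adjusted p under 0.05 over all genes tested). Over all 17985 tested genes, 2.52% were called lower and 1.9% higher, 4.41% in all. The median change of the 58 members was -0.39 on the log2 scale, against 0.05 over all tested genes, and 50 of the 58 changes were below 0. At an unadjusted p under 0.05, 27 members were lower and 1 higher, beside 5.6% and 6.55% of all genes. No member was called higher by edgeR or DESeq2 on the recovered reads either; edgeR called the same 17 members lower, beside 2.85% of all genes, and DESeq2 called 19, beside 3.31%. With the replicate numbers as blocks, 26 members were lower and 1, Dnah9, was higher, beside 8.52% of all genes called (4.21% higher and 4.31% lower).

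**Figure D1:**
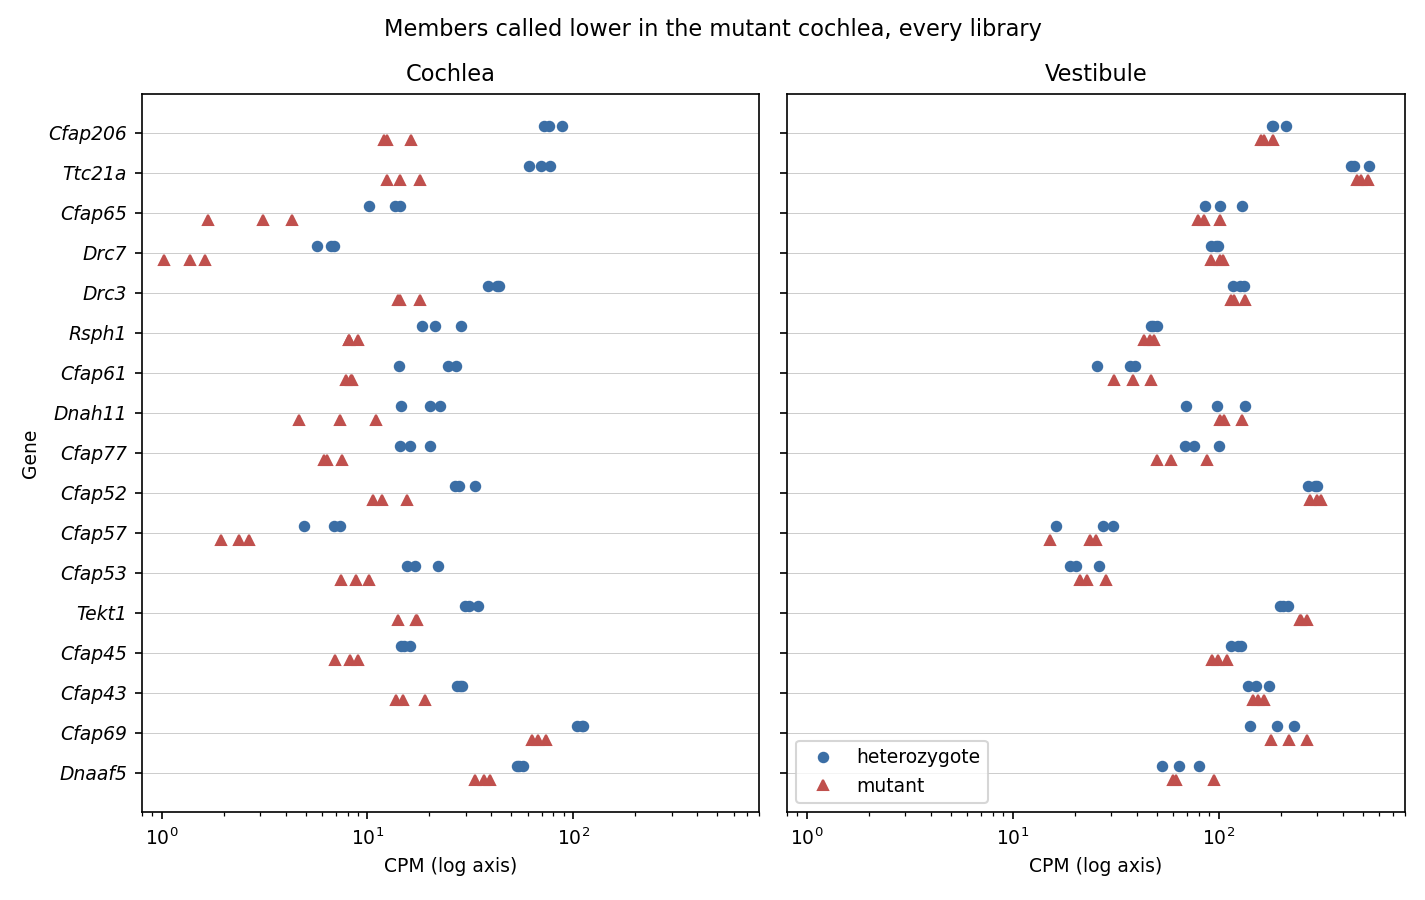
CPM on a log axis of the 17 members called lower in the mutant cochlea, in the cochlea (left) and the vestibule (right), with each heterozygous library as a circle and each mutant library as a triangle. In the cochlea the mutant libraries lie below all heterozygous libraries for each of the 17 genes, while in the vestibule the genotypes overlap for all but Cfap45 and Tekt1.

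The summed level of all 70 listed members was 1626, 1479 and 1634 CPM in the cochlear heterozygotes and 1099, 1054 and 1168 CPM in the mutants. The mutant mean was 70.1% of the heterozygous mean, and the sum of the 7 hair cell markers was at 70.1% as well. The 17 called members together were at 581 ± 9.82 CPM (SD, n = 3) in heterozygotes and 248 ± 8.04 CPM in mutants, or 42.7%, a sum that the choice of called members lowers. Among single hair cell markers, Otof changed by -0.89, Myo7a by -0.71 and Espn by -0.72 on the log2 scale. The other 4 markers were not called, with changes of -0.94 for Calb2, -0.47 for Myo6, -0.25 for Lhx3 and -0.17 for Pou4f3. Ratios of members to these markers were not tested. The plot of summed levels shows both sums by library.

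**Figure D2:**
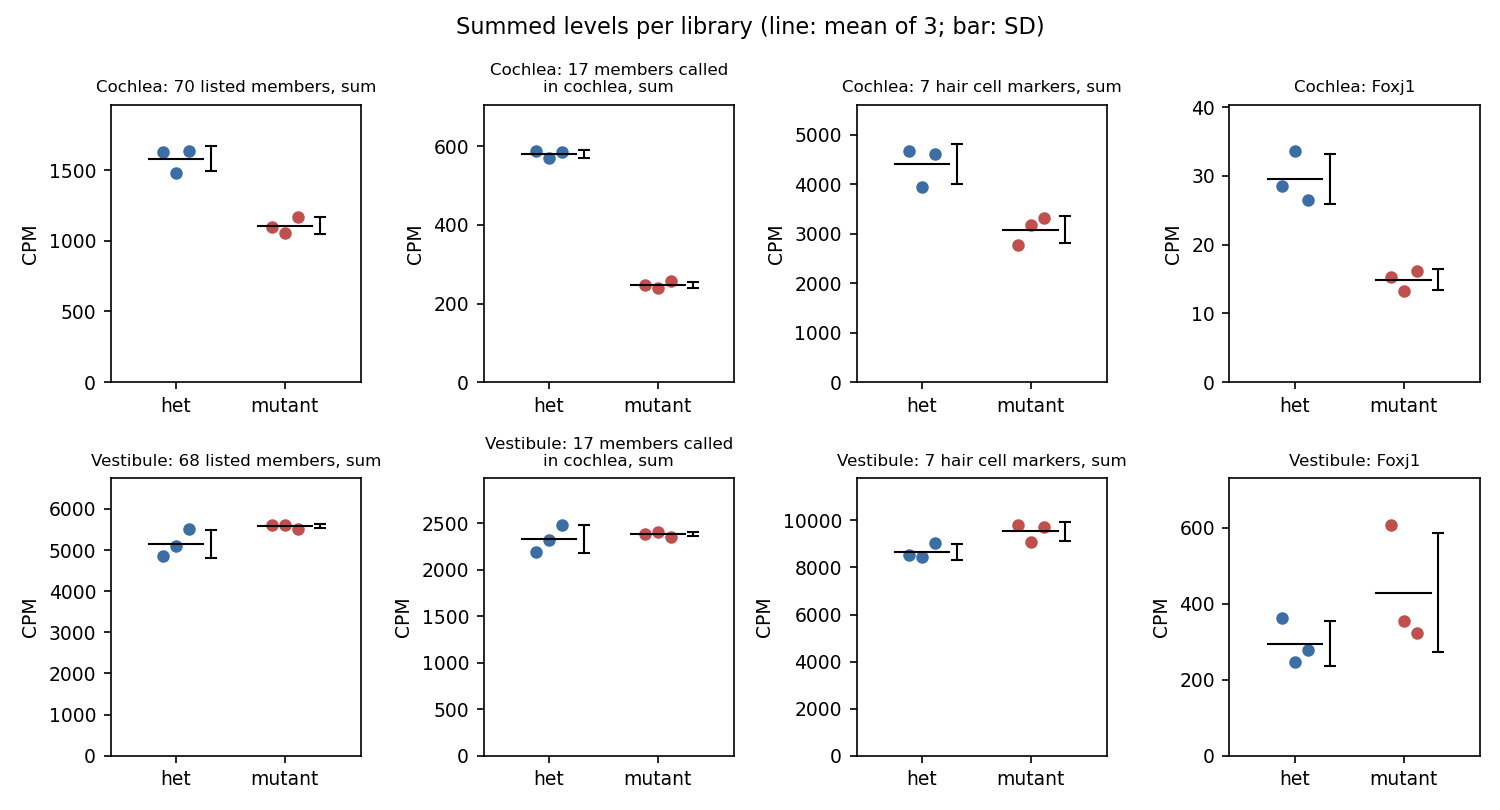
Summed CPM per library in the cochlea (top) and vestibule (bottom) of all listed members, of the 17 members called in the cochlea and of 7 hair cell markers, and the CPM of Foxj1, with the mean of 3 libraries as a line and the SD as a bar. In the cochlea all 4 quantities are lower in every mutant library, and in the vestibule the sum of the 17 members is at 2333 ± 147 CPM in the heterozygotes and 2386 ± 26.0 CPM in the mutants.

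Coordinates below are from GENCODE M21 on GRCm38. Radial spokes, the T-shaped stalks that reach from the doublets to the central pair, held the strongest change, with 3 of 8 tested members called. Cfap206 (chr4:34688559-34730206), which docks a radial spoke and an inner dynein arm to the doublet, was at 88.2, 72.1 and 75.9 CPM in the heterozygous cochlea and 12.0, 16.3 and 12.4 CPM in the mutant cochlea. The groups lay far apart, the mutant mean at 17.2% of the heterozygous mean, a log2 change of -2.46 ± 0.16 (SE; limma adjusted p = 1.98e-06). Rsph1 (chr17:31255019-31277383), a protein of the spoke head, was at 28.3, 18.3 and 21.3 CPM and 8.12, 8.13 and 9.03 CPM. Its groups did not overlap, with the mutants tightly together, and the change was -1.31 ± 0.21 (limma adjusted p = 0.00167). Cfap61 (chr2:145934784-146215039), of the calmodulin-binding complex at the spoke base, was at 24.6, 14.2 and 27.0 CPM in the heterozygotes and 7.87, 8.39 and 8.34 CPM in the mutants. Heterozygous replicate 2 was the lowest of its group but still above every mutant, and the change was -1.27 ± 0.24 (limma adjusted p = 0.00564). The spoke head genes Rsph4a and Rsph9 gave cochlear changes of -0.14 and -0.01 with overlapping groups, and were not called. The stalk genes Rsph3a and Rsph3b, near-identical copies between which reads could be split, were at -0.43 and -0.43 and were not called.

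Of the nexin-dynein regulatory complex, which links neighbouring doublets and restrains their sliding, 2 of 3 members were called. Drc3 (chr11:60353329-60394341) was at 43.3, 42.4 and 38.4 CPM in the heterozygotes and 14.1, 14.5 and 18.1 CPM in the mutants. The mutant libraries were all well under the lowest heterozygote, a change of -1.36 ± 0.16 (limma adjusted p = 1.89e-04). Drc7 (chr8:95055103-95078141) was a low gene, at 6.86, 5.71 and 6.62 CPM and 1.37, 1.03 and 1.62 CPM, the mutant values resting on 11, 8 and 14 reads. It did not overlap between genotypes and changed by -1.66 ± 0.25 (limma adjusted p = 9.98e-04). Drc1, the scaffold subunit, was at 53.2, 43.7 and 45.0 CPM and 38.4, 29.2 and 33.0 CPM, apart but not called (-0.49, limma adjusted p = 0.123; 0.0103 with the block).

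Among 5 tested proteins of the central apparatus, the central pair and its projections, 2 were called. Cfap65 (chr1:74902071-74935599) was at 14.4, 10.2 and 13.6 CPM in the heterozygotes and 3.12, 1.68 and 4.29 CPM in the mutants, the latter from 25, 13 and 37 reads. Every mutant was below the lowest heterozygote, and the change was -1.81 ± 0.28 (limma adjusted p = 0.00144). Cfap69 (chr5:5579278-5664239), a far more abundant transcript, was at 110.3, 111 and 104 CPM and 67.6, 63.0 and 73.5 CPM. This smaller change, -0.67 ± 0.12, was precise, because the libraries of each group lay close together (limma adjusted p = 0.00509). Cfap54, of a neighbouring projection, was at 121, 76.1 and 104 CPM and 71.0, 65.8 and 78.5 CPM, with overlapping groups and no call (limma adjusted p = 0.198; 0.0108 with the block).

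Tektins and other proteins inside the doublet wall had the most calls, 5 of 9 tested. Tekt1 (chr11:72344722-72362442), a filament-forming tektin, was at 29.9, 34.5 and 31.1 CPM in the heterozygotes and 14.0, 17.4 and 17.1 CPM in the mutants. The mutants were at 50.9% of the heterozygotes on average with no overlap, a change of -0.94 ± 0.17 (limma adjusted p = 0.00409). Tekt2 did not follow it in size: its change was -0.12, with overlapping groups, and Tekt3, Tekt4 and Tekt5 were under the level filter in the cochlea. Cfap52 (chr11:67924806-67965651) was at 27.9, 26.7 and 33.2 CPM and 15.5, 10.6 and 11.8 CPM, a change of -1.16 ± 0.19 with clear separation (limma adjusted p = 0.00219). Cfap77 (chr2:28926949-29055066) was at 16.0, 20.0 and 14.4 CPM and 6.37, 7.48 and 6.14 CPM, a change of -1.21 ± 0.21, again without overlap (limma adjusted p = 0.00349). Both proteins bind inside the doublet tubules. Cfap53, which sits inside the doublet beneath the outer dynein arm, was at 15.5, 21.9 and 17.1 CPM and 10.1, 8.78 and 7.41 CPM. Cfap45 (chr1:172520801-172545870), another inner protein, was at 15.1, 14.5 and 16.1 CPM and 8.25, 9.03 and 6.95 CPM. Both were lower in every mutant, by -0.97 ± 0.21 and -0.84 ± 0.20 (limma adjusted p = 0.0162 and 0.0267). Cfap20, at the inner junction of the doublet, and Cfap126 were not called, at 0.11 and -0.35.

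Dynein arms, the motors, gave few calls. Of 5 tested outer arm heavy chains only Dnah11 (chr12:117877982-118199043) was called: it was at 14.5, 20.2 and 22.5 CPM in the heterozygotes and 7.37, 4.65 and 11 CPM in the mutants. The groups did not overlap but spread widely, and the change was -1.26 ± 0.27 (limma adjusted p = 0.0168). Dnah9, another outer arm heavy chain, was at 17.8, 14.2 and 17.6 CPM and 22.9, 22.1 and 31.5 CPM. It was the single tested member with every mutant cochlear library above every heterozygous one, and was not called (0.58, limma adjusted p = 0.138) except with the replicate block (0.0181). The other outer arm heavy chains ranged from -0.76 (Dnah8, called lower with the block, limma adjusted p = 0.0380) to 0.19 (Dnah5). Dnah5 was close to the level filter in the cochlea, at a heterozygous mean of 1.25 CPM. None of the 7 tested inner arm heavy chains was called (from -0.53 for Dnah6 to 0.21 for Dnah2), including the near-identical Dnah7a, Dnah7b and Dnah7c, nor were the 4 light chain and docking genes Dnal1, Dnal4, Dnali1 and Ttc25. With the block, Dnah6 and Ttc25 were called lower (limma adjusted p = 0.0186 and 0.0478). The tether and regulators of the inner arms differed among themselves. Cfap43 (chr19:47736857-47919287), a tether protein, was at 28.1, 28.8 and 27.1 CPM and 19.0, 13.8 and 14.8 CPM, and its partner Cfap44 was at 40.1, 39.0 and 51.2 CPM and 38.6, 26.7 and 41.9 CPM. Cfap43 fell by 0.79 ± 0.17 on the log2 scale with no overlap (limma adjusted p = 0.0175), while the groups of Cfap44 overlapped (-0.29, limma adjusted p = 0.642). Cfap57 (chr4:118554551-118620777), an inner arm regulator, was at 6.86, 4.91 and 7.37 CPM and 2.37, 1.94 and 2.66 CPM from 19, 15 and 23 mutant reads, lower in every mutant by -1.14 ± 0.25 (limma adjusted p = 0.0175).

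Of 6 tested factors of dynein assembly, Dnaaf5 (chr5:139150223-139186510) was called, at 56.7, 54.3 and 53.0 CPM in the heterozygotes and 36.6, 39.5 and 33.2 CPM in the mutants. Its groups were narrow and apart, and its change of -0.57 ± 0.14 was the smallest of the 17 (limma adjusted p = 0.0267); 10.6% of its exon bases are shared with a gene on the opposite strand, and the sources used here do not say whether counting used strand. Several other members share such bases, and not all are listed here. This share was 32.6% for Dnaaf2, 20.8% for Tekt2, 12.6% for Dnaaf3, 10.6% for Cfap157, 10.5% for Dnah3 and 9.89% for Rsph3a. It was 8.47% for Cfap73, 8.36% for Cfap52, 4.44% for Dnah11 and 3.67% for Cfap65. Dnaaf1 had the smallest p of the members not called (-0.91, limma adjusted p = 0.0687; 0.0279 with the block), with 20.7% of its exon bases in such an overlap. Exon bases shared with a gene on the same strand were 38.7% for Dnaaf2, 19.1% for Cfap299 and 13.2% for Rsph10b. Ttc21a (chr9:119937606-119967793), a paralog of an intraflagellar transport subunit, had the second largest change. It was at 61.1, 69.8 and 76.6 CPM in the heterozygotes and 12.4, 14.5 and 18.0 CPM in the mutants. The mutant mean was 21.6% of the heterozygous mean, -2.15 ± 0.17 on the log2 scale (limma adjusted p = 6.39e-06).

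**Figure D3:**
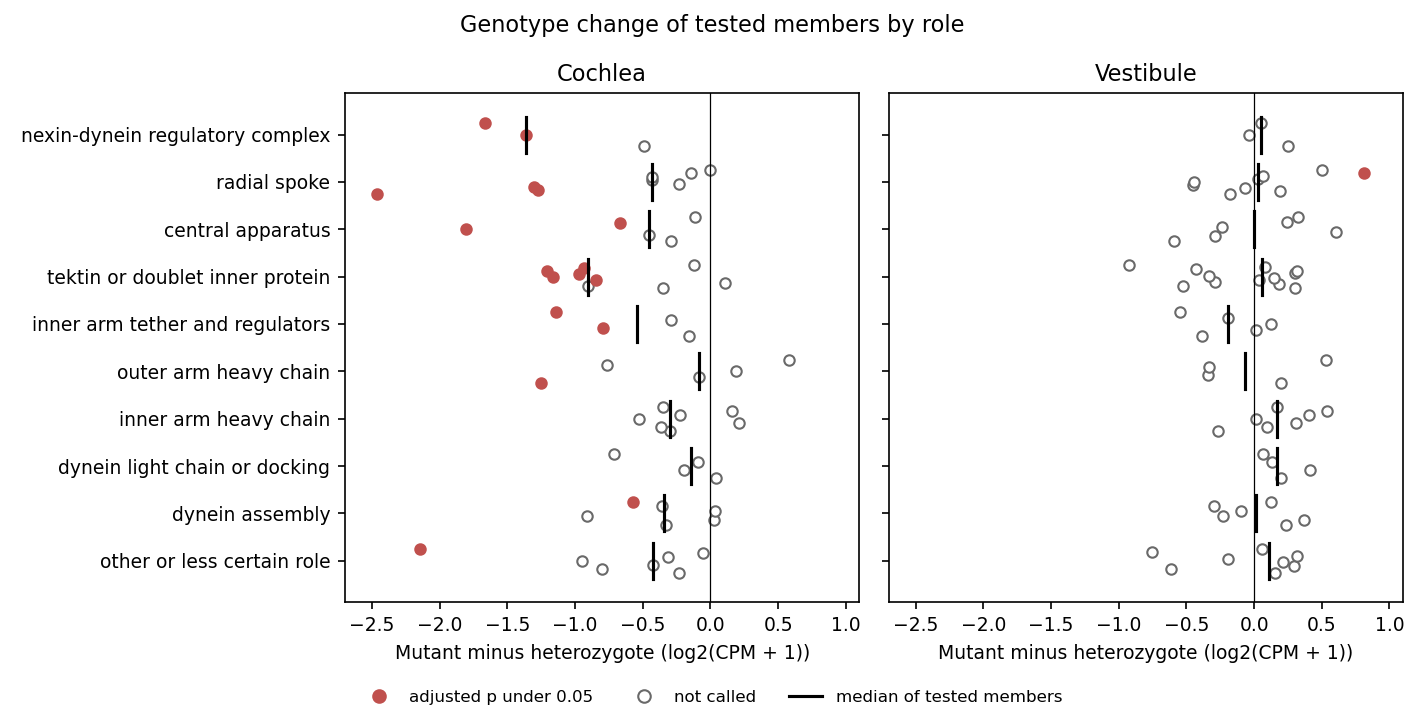
Genotype change of each tested member in log2(CPM + 1) units, mutant mean less heterozygous mean, by role in the axoneme, in the cochlea (left) and vestibule (right), with called members filled and role medians as bars. In the cochlea the medians run from -1.36 for the nexin-dynein regulatory complex to -0.08 for the outer arm heavy chains, and in the vestibule they lie between -0.19 and 0.17.

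Some of these calls did not outlast the loss of 1 library. Of the 17, 11 were called in all 6 fits that left out 1 cochlear library (Cfap206, Cfap52, Cfap61, Cfap65, Cfap69, Cfap77, Drc3, Drc7, Rsph1, Tekt1 and Ttc21a). Cfap45 lost its call in every such fit (limma adjusted p up to 0.107). Cfap43 lost it without heterozygous replicate 1 or 2 or mutant replicate 2 or 3, Cfap57 without heterozygous replicate 1 or 3 or mutant replicate 1 or 2, and Dnaaf5 without heterozygous replicate 1 or 2 or mutant replicate 1 or 3 (up to 0.0831, 0.0837 and 0.119). Cfap53 lost it without heterozygous replicate 2 or mutant replicate 2 or 3, and Dnah11 without heterozygous replicate 2 or mutant replicate 1 or 2 (up to 0.0903 and 0.0786). Every one of the 17 stayed below 0 in each of these fits.

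Per kb of exon, the highest members in the heterozygous cochlea were Cfap36 (57.0 ± 8.18 CPM per kb, SD, n = 3), Cfap206 (31.7 ± 3.38), Cfap298 (23.2 ± 3.88), Tekt1 (19.6 ± 1.49) and Drc1 (17.6 ± 1.93). Cfap36 stood above the rest by more than the spread, whereas Cfap298, of which 53.6% of exon bases overlap genes on the opposite strand, was close to Tekt1 and Drc1. In the heterozygous vestibule the highest were Tekt2 (165 ± 17), Tekt1 (127 ± 5.37), Cfap52 (124 ± 6.83), Ttc21a (88.5 ± 10.1) and Drc1 (80.2 ± 2.78). Tekt1 and Cfap52 did not differ beyond their spread there, and Tekt2 and Cfap52 are among the genes with exon bases shared with the opposite strand, so their levels may hold reads of another gene. Cfap36, a protein of less certain role, was at 182, 138 and 149.9 CPM in the cochlear heterozygotes and 116, 116 and 115 CPM in the mutants, apart but not called (-0.42, limma adjusted p = 0.103; 0.00781 with the block).

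Members under the level filter were not tested. In the cochlea these were Cfap221, Cfap73, Cfap97d1, Cfap97d2, Dnah12, Dnah14, Dnah2os (an antisense RNA whose symbol fits the families), Dnah3, Rsph14, Tekt3, Tekt4 and Tekt5, and in the vestibule Dnah12, Dnah14, Dnah17 and Dnah2os; Cfap97d1 and Dnah3 were not listed in the vestibule. By the third-highest library, which the filter read, the cochlear members just inside were Cfap299 (1.14 CPM), Dnah5 (1.25) and Cfap157 (1.51), and those just outside were Rsph14 and Tekt4 (0.929 each) and Cfap97d2 (0.811). In the vestibule they were Cfap100 (1.21), Tekt5 (1.80) and Cfap221 (4.60) inside, and Dnah17 (0.942), Dnah12 (0.212) and Dnah14 (0.168) outside. Tekt4 was at 1.02, 0.929 and 1.17 CPM in the heterozygous cochlea and 0.25, 0.258 and 0.463 CPM in the mutant cochlea, the latter resting on 2, 2 and 4 reads. It lay apart between genotypes at a depth too low for the filter.

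In the mutant vestibule, 1 of 64 tested members was called, beside 3.5% of the 15595 tested genes (2.41% higher and 1.09% lower). Rsph4a (chr10:33905111-33916021), the spoke head protein, was at 67.0, 87.6 and 104 CPM in the heterozygotes and 145, 158 and 146 CPM in the mutants. All mutant libraries were above all heterozygous ones, and the gene rose by 0.81 ± 0.17 (limma adjusted p = 0.0387). The call was lost without heterozygous replicate 2 or any mutant replicate (adjusted p up to 0.156). No member was called lower; at an unadjusted p under 0.05, 8 were higher and 8 lower, beside 7.9% and 8.2% of all genes. On the recovered reads, edgeR called Rsph4a alone, beside 2.51% of all genes called higher. DESeq2 called Rsph4a, Cfap54 and Tekt1 higher and Cfap161 lower, beside 7.91% of all genes. The members' median change was 0.07, against -0.06 over all genes, with 39 changes above 0 and 25 below.

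Pairing the libraries by replicate number altered the vestibular count most. With that block, 15 members were higher and 10 lower, beside 23.3% of all tested genes (10.5% higher and 12.8% lower), so that 25 of 64 members stood against that share of all genes. The higher ones were Cfap126, Cfap300, Cfap36, Cfap54, Cfap69, Cfap97, Dnah2, Dnah7b, Dnah9, Dnal4, Drc1, Rsph4a, Rsph9, Tekt1 and Tekt2. The lower ones were Cfap161, Cfap299, Cfap45, Cfap46, Cfap77, Cfap97d2, Dnaaf3, Dnah5, Rsph10b and Tekt5. Leaving out both replicate 1 libraries gave 4 calls, beside 5.53% of all genes, with Cfap54, Dnah9 and Rsph4a higher and Cfap161 lower. Cfap161, a doublet inner protein, was at 103, 123 and 119.8 CPM in the vestibular heterozygotes and 77.1, 83.1 and 78.3 CPM in the mutants. Its groups were well apart, and it had the smallest p of the members not called (-0.53 ± 0.12, limma adjusted p = 0.0616; 4.49e-04 with the block). Dnah9 was at 143, 179 and 205 CPM and 200.2, 270.1 and 294 CPM, with overlapping groups (0.53, limma adjusted p = 0.208; 1.53e-04 with the block). The low members Cfap97d2 and Cfap299 came next in p, at -0.76 and -0.61 (limma adjusted p = 0.132 and 0.144; 0.0182 and 0.0201 with the block).

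For the 17 members called in the cochlea, vestibular changes lay between -0.33 and 0.30, and none was called (limma adjusted p from 0.212 to 0.980). Cfap206 was at 212, 181 and 184 CPM in the vestibular heterozygotes and 182, 161 and 166 CPM in the mutants. Ttc21a was at 439, 453 and 539 CPM and 471, 489 and 529 CPM. Drc7 was at 96.5, 91.4 and 98.9 CPM and 105, 101 and 91.6 CPM. For all 3 genes the vestibular groups overlapped. Tekt1 was at 199, 205 and 216 CPM and 249.8, 269 and 248 CPM, with every mutant above the heterozygotes, the opposite order to its cochlear libraries (0.30, limma adjusted p = 0.212; 0.00968 with the block). Cfap45 was at 129, 124 and 115 CPM and 109, 99.1 and 92.2 CPM, with every mutant below the heterozygotes as in the cochlea (-0.29, limma adjusted p = 0.291; 0.0176 with the block). With the block, Cfap69 was also called higher (0.0310) and Cfap77 lower (0.0165) in the vestibule.

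Genotypes did not overlap for 27 of the 58 cochlear members, 26 with the mutants lower and 1, Dnah9, with the mutants higher, beside 17.5% of all tested genes (7.77% lower, 9.74% higher). In the vestibule this held for 22 of 64 members, 9 lower and 13 higher, beside 22.3% of all genes (11.6% and 10.7%). Cfap161, Cfap299 and Cfap45 were lower without overlap in both organs, beside 1.54% of the genes tested in both. No member was higher without overlap in both organs, beside 3.0% of genes. Cfap36, Cfap58, Drc1 and Tekt1 were lower in the cochlea and higher in the vestibule without overlap, beside 1.32% of genes. Cfap299 was the only cochlear member that passed the level filter through heterozygotes alone. With every mutant library under 1 CPM, the filter itself fixed its cochlear separation. The counts above include Cfap299, and its part in them is no result. It was at 1.14, 1.86 and 2.35 CPM and 0.625, 0.774 and 0.347 CPM in the cochlea and at 12.6, 9.81 and 11.7 CPM and 6.97, 6.96 and 7.21 CPM in the vestibule. Cfap58, known from the sperm flagellum, was at 3.68, 4.38 and 2.03 CPM and 1.87, 1.03 and 0.811 CPM in the cochlea and 36.5, 37.4 and 35.9 CPM and 40.0, 44.9 and 43.2 CPM in the vestibule. Both were low genes in the cochlea, and neither was called in either organ (limma adjusted p from 0.119 to 0.477). With the block, Cfap58 was called lower in the cochlea (0.0305), Cfap299 lower in the vestibule (0.0201) and Cfap161 lower in the cochlea too (0.0232).

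The genotype change itself differed between the organs for 15 of the 57 members tested in both, in each case with the cochlear change below the vestibular one (limma interaction of genotype and organ over 12 libraries). Of the 14674 genes tested, 3.14% were called, 2.43% lower and 0.709% higher in this sense. No member differed in the other direction by limma, edgeR or DESeq2, and at an unadjusted p under 0.05 the split was 27 below and 0 above, beside 6.75% and 6.56% of genes. On the recovered reads, edgeR called 18 lower, beside 2.91% of genes, and DESeq2 20, beside 4.42%. Among the hair cell markers, Myo7a was called in the difference too, at -0.81 (limma adjusted p = 0.0384). The median difference was -0.54 for members and 0.11 for all genes. The comparison of changes shows Cfap206 and Ttc21a farthest from equal change, with differences of -2.28 ± 0.20 (SE; limma adjusted p = 2.34e-05) and -2.21 ± 0.21 (3.56e-05). Drc7, Cfap65, Cfap61, Drc3, Tekt1, Rsph1, Cfap52, Cfap53 and Cfap43 were the other members called both in the cochlea and in the difference, from -1.72 for Drc7 to -0.81 for Cfap43.

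**Figure D4:**
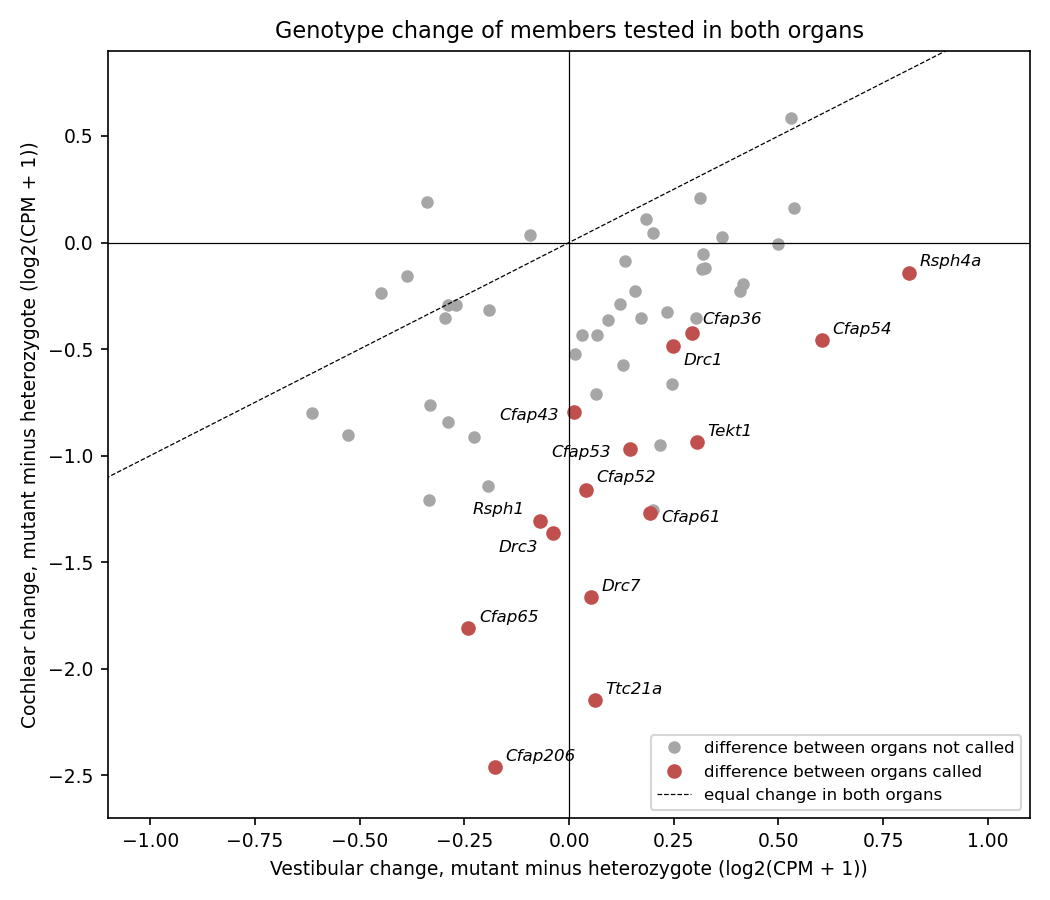
Cochlear change against vestibular change of the 57 members tested in both organs, each as the mutant mean less the heterozygous mean of log2(CPM + 1), with the dashed line marking equal change and filled red points the 15 called in the interaction. All 15 lie below the line, and 11 of them were also called in the cochlea.

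Cfap36, Cfap54, Drc1 and Rsph4a were called in the difference without a cochlear call, at -0.72, -1.06, -0.74 and -0.95 (limma adjusted p = 0.0369, 0.0497, 0.0388 and 0.0241). Cfap54 was at 79.1, 111 and 123 CPM in the vestibular heterozygotes and 129, 172 and 173 CPM in the mutants, apart with the mutants higher. Drc1 was at 207, 217 and 221 CPM and 266, 257 and 244 CPM, and Cfap36 at 97.9, 95.1 and 94.4 CPM and 107, 126 and 121 CPM. In these genes the vestibular libraries moved the other way from the cochlear ones, with vestibular changes of 0.60, 0.25 and 0.29 that limma called with the replicate block (1.01e-04, 0.0310 and 0.0232) and not without it. Cfap54 was also called higher in the vestibule by DESeq2 and without both replicate 1 libraries, as given above. The remaining 6 cochlear calls (Cfap45, Cfap57, Cfap69, Cfap77, Dnaaf5 and Dnah11) were not called in the difference (limma adjusted p from 0.0553 for Dnah11 to 0.264 for Cfap57), and were called with the block, which gave 26 members in all beside 13.3% of genes (6.43% lower and 6.9% higher). The others that gained a call with it were Cfap126, Cfap298, Cfap58, Dnah6 and Ttc25. Cfap206, Cfap52, Drc3, Drc7, Rsph1, Tekt1 and Ttc21a were called in all 12 fits that left out 1 library. The other 8 lost the call in some of them; Cfap65 did so without cochlear heterozygous replicate 1 or vestibular mutant replicate 3 (limma adjusted p up to 0.0523), and each of the others did so in 7 to 11 of the 12 fits, with an adjusted p of up to 0.142.

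Foxj1, the forkhead factor that switches on the motile cilium programme, was at 28.5, 33.6 and 26.5 CPM in the cochlear heterozygotes and 15.2, 13.3 and 16.2 CPM in the mutants. Every mutant was far below the heterozygotes, a fall of 0.94 ± 0.17 on the log2 scale (limma adjusted p = 0.00530). In the vestibule it was at 362, 245 and 278 CPM and 608, 355 and 322 CPM, the replicate 1 library being the highest of each genotype. The vestibular groups overlapped and the gene was not called (0.50 ± 0.25, limma adjusted p = 0.392) except as higher with the block (0.00148). The cochlear and vestibular changes differed by -1.43 (limma adjusted p = 0.0145). Rfx2 was at 3.81, 9.69 and 7.48 and 7.12, 7.23 and 6.72 CPM in the cochlea, with wholly overlapping groups. Rfx3 was at 387, 391 and 295 and 374, 344 and 277 CPM, likewise overlapping. Neither was called in the cochlea (0.08 and -0.11, limma adjusted p = 0.977 and 0.905) or the vestibule (0.41 and 0.43, limma adjusted p = 0.508 and 0.40), although Rfx3 was with the block there (0.00177).

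Genes of the same structures under other names were described from fixed lists that the families do not hold. In the cochlea, 5 of 9 tested genes of the list headed central apparatus and 4 of 6 radial spoke genes were called lower. So were 3 of 8 nexin complex and ruler genes and 3 of 8 outer arm, docking and intermediate chain genes. None in these lists was called higher, beside 2.52% of all tested genes called lower and 1.9% called higher. Of the 5 under the heading central apparatus, Hydin, Spag6l and Spef2 encode central apparatus proteins, while Wdr78 encodes an axonemal dynein intermediate chain and Ttc29 is not known as a central pair protein. Hydin, a giant protein of a central pair projection, was at 67.5, 77.4 and 84.4 CPM in the heterozygotes and 21.9, 34.1 and 37.2 CPM in the mutants, without overlap (-1.30, limma adjusted p = 7.93e-04). Ttc29 was at 9.91, 10.6 and 10.6 CPM and 2.25, 1.55 and 1.97 CPM, the lists' largest cochlear fall (-1.97, limma adjusted p = 1.78e-04). Ccdc65, the Drc2 subunit of the nexin complex, was at 36.5, 35.7 and 36.4 CPM and 10.1, 12.1 and 14.0 CPM, also apart (-1.52, limma adjusted p = 1.28e-04). Ccdc39, part of the molecular ruler that spaces the spokes, and the spoke proteins Dnajb13 and Nme5 fell as well, by 0.98, 1.40 and 1.05 on the log2 scale. Of the outer arm genes, the intermediate chain gene Dnaic2 was at 27.1, 25.8 and 29.7 CPM and 12.1, 18.1 and 14.0 CPM (-0.87, limma adjusted p = 0.0139), and the docking gene Armc4 changed by -0.78 and Dynlrb2 by -0.77.

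Other lists gave few or no cochlear calls. None of 6 tested dynein assembly factors under other names, of 12 microtubule inner proteins or of 31 intraflagellar transport genes was called in the cochlea (limma), beside 4.41% of all tested genes. The list medians were 0.06, -0.45 and -0.17. The block called 0, 2 and 6 genes of these lists, beside 8.52% of all genes. The 2 were lower, and the 6 were 5 lower and 1 higher. Of 24 BBSome and transition zone genes, which primary cilia share, 1 was called, beside 2.52% of all tested genes called lower. This was Bbs1, at 147, 138 and 153 CPM and 87.4, 97.0 and 99.7 CPM without overlap (-0.62, limma adjusted p = 0.00689). In the vestibule all fixed pathway lists together had 2 calls, beside 3.5% of all tested genes called (2.41% higher and 1.09% lower). These were 1 of 9 tested radial spoke genes and 1 of 31 intraflagellar transport genes. The adenylate kinase gene Ak7 was at 24.7, 33.9 and 34.5 CPM in the heterozygotes and 10.9, 17.8 and 14.0 CPM in the mutants (-1.08, limma adjusted p = 0.0395). The kinesin-2 subunit gene Kifap3 was at 389.7, 398 and 392 CPM and 278, 268 and 289 CPM (-0.50, limma adjusted p = 0.0454). Both were lower in every mutant library. With the block, Hydin, Dnaic2, Dynlrb2, Iqcg, Nme5 and Bbs1 were called higher in the vestibule and Wdr78 lower (limma adjusted p from 0.00300 for Dynlrb2 to 0.0485 for Iqcg). Ccdc40, of the nexin complex and ruler list, and Ccdc151, of the outer arm list, were called higher there too (3.36e-04 and 4.70e-04). In the cochlea the block called Ccdc40 lower (0.0371). With it, 12 of 31 intraflagellar transport genes and 10 of 24 BBSome and transition zone genes were higher in the mutant vestibule and 1 of each lower, beside the 10.5% and 12.8% of all genes given above.

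Promoters are shown because several called members hold a match to the X-box, the RFX factor motif of ciliary genes. RefSeq promoter sequences on GRCm38.p6, 250 bases before to 50 after the start set for each promoter, were matched for 56 of the 70 members (63 promoters). The X-box pattern searched was GTNNCC, any 3 bases and GNAAC, on either strand. It was in 9 of the 63 (14.3%) and in 2.17% of all 32851 promoters. By member, it was in 4 of 14 called in the cochlea with a promoter sequence, 4 of 33 tested but not called and 1 of 9 not tested. Those of the 4 called members and of Cfap44, tested and not called, follow with the match in capitals, 5′ to 3′ on the strand of the gene.
Cfap206: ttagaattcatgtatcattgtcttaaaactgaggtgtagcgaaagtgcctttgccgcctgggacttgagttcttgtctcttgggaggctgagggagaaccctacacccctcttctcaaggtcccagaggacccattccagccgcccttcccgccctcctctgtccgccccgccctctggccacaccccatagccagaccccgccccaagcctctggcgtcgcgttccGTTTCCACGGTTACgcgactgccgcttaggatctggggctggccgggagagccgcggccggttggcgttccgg
Cfap61: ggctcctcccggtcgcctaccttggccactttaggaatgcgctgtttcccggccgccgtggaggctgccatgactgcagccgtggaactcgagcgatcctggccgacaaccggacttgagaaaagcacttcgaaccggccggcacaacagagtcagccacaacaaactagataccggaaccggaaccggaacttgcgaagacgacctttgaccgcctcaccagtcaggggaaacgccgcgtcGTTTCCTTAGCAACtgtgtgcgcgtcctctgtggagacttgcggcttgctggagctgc
Cfap45: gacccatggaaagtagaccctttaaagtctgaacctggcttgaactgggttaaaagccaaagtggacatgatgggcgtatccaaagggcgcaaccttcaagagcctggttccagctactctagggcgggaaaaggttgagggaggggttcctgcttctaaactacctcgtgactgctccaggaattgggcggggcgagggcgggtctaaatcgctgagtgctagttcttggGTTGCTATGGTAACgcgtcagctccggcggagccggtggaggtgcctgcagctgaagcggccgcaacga
Dnaaf5: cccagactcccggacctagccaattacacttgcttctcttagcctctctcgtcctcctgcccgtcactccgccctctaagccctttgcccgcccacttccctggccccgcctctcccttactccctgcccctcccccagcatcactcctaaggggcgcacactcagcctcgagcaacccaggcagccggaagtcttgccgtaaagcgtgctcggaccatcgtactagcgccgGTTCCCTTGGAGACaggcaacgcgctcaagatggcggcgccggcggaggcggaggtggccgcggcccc
Cfap44: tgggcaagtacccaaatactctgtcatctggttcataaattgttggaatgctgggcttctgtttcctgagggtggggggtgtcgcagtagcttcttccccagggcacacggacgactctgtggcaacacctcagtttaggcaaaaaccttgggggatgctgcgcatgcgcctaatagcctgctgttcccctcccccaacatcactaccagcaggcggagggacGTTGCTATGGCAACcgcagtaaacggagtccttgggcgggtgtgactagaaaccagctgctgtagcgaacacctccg
The windows are chr4:34730157-34730456, minus strand, for Cfap206, chr2:145934534-145934833, plus strand, for Cfap61, chr1:172520880-172521179, plus strand, for Cfap45, chr5:139149985-139150284, plus strand, for Dnaaf5, and chr16:44394549-44394848, plus strand, for Cfap44. In all 5 the match began a short way upstream of the start on which the window was set, at 23, 8, 19, 18 and 27 bases before it. For Cfap45 that start differs from the GENCODE start of the gene, and the whole window lies inside the gene coordinates given above. Cfap206 and Cfap44 thus share a match near the start, and their cochlear changes were -2.46 and -0.29. The other tested members with a match, Cfap298, Dnaaf2 and Dnah17, changed by -0.33, 0.03 and -0.08 and were not called.

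Shorter motifs were counted in the same windows on both strands. The short RFX site GTTGCC, which can overlap the pattern above, was in 38.1% of member promoters and 12.5% of all promoters, in 3 of the 14 called and 17 of the 33 tested but not called members. The forkhead core TGTTTAC was in 6.35% of member promoters and 3.65% of all. The E-box CAGCTG, bound by hair cell factors such as Atoh1, was in 12.7% and 16.3%, and the GFI1 core AAATCA in 11.1% and 14.0%; the GFI1 core was in 3 of the 14 called and 2 of the 33 not called members. A match describes letters in the window and not binding.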

How the data were processed

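The deposited values were CPM per gene, 1 table for each of the 12 libraries, which the authors made by scaling read counts to each library's total, as the values show and per the file headers. The aligner TopHat and the build GRCm38 are named, without a version, in the submitters' processing notes; the counter, its strand setting and the gene annotation are not given in the sources used here. All values (100%) were whole multiples of 1 read within 1e-06, so read counts were recovered. Genes with at least 1 CPM in 3 of 6 libraries were compared by limma 3.58.1 (trend, R 4.3.3) on log2(CPM + 1), without a block, within each organ and, for the difference between organs, over the 14674 genes tested in both. P-values were Benjamini-Hochberg adjusted over all genes tested, with calls under 0.05. The added 1 CPM makes log2 changes of low genes smaller than their CPM ratios. Other settings tried were a pseudocount of 0.25 or 4, a filter of 5 CPM or none, median-of-ratios scaling, a replicate block, edgeR 4.0.16, DESeq2 1.42.0, and libraries left out. The sample titles number the replicates and do not say that libraries of the same number form a pair. Deviations of same-numbered libraries from their group means correlated at 0.226, 0.226 and 0.42 in the cochlea and 0.766, 0.508 and 0.599 in the vestibule. Between different numbers the highest correlation was 0.0127 in the cochlea and 0.318 in the vestibule. The latter, between replicates 2 and 3, was itself over 0.1. All same-number values were over the 0.1 set for printing blocked values. Calls that the block changed are therefore given for members and for list genes named with CPM values. What same-numbered libraries share was not tested, so the block rests on numbers alone. Of the fits, only the within-organ limma fit without a block was checked on simulated counts. These were drawn independently for each library, so the check does not cover what same-numbered libraries may share. The members and lists were chosen with earlier results of these data known. Every called member was named, with members not called taken by fixed rules (separation in both organs, level per kb, smallest p, closeness to the filter); at most 4 called genes were named per list, by smallest p, besides Foxj1, Rfx2 and Rfx3 and every list gene called in the difference between organs.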

Additional observations from a re-analysis of the deposited data

Results flagged for a closer look

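The genotype change differed between cochlea and vestibule, by the interaction of genotype and organ over 12 libraries (limma, adjusted over the 14674 genes tested in both), for 15 members and 15 genes of the fixed pathway lists. Each value is the cochlear change minus the vestibular change on the log2 scale, and all 30 were below 0. Among radial spoke members these were Cfap206 (-2.28), Cfap61 (-1.46), Rsph1 (-1.23) and Rsph4a (-0.95). Rsph4a changed by -0.14 in the cochlea and 0.81 in the vestibule. The 3 nexin-dynein regulatory complex members were Drc1 (-0.74), Drc3 (-1.32) and Drc7 (-1.72). Central apparatus members were Cfap54 (-1.06, with -0.46 in the cochlea and 0.60 in the vestibule) and Cfap65 (-1.57). Inside the doublet wall were Cfap52 (-1.20), Cfap53 (-1.11) and Tekt1 (-1.24). The inner arm tether gene Cfap43 (-0.81), Ttc21a (-2.21) and Cfap36 (-0.72) completed the members. Cfap36, Cfap54, Drc1 and Rsph4a had no cochlear call, as given above.

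Of the pathway lists, Foxj1, the regulator, differed by -1.43. Outer arm and docking genes were Dnaic2 (-1.17), Ccdc151 (-1.02), Armc4 (-0.98) and Dynlrb2 (-1.24). Nexin complex and ruler genes were Ccdc65 (-1.59), Iqcg (-0.91) and Ccdc40 (-0.89), and the list headed central apparatus gave Spag6l (-1.25) and Ttc29 (-2.20). Ccdc151 (-0.48 in the cochlea and 0.54 in the vestibule) and Ccdc40 (-0.35 and 0.54) were called in neither organ without the block. Radial spoke genes were Nme5 (-1.36), Dnajb13 (-1.53) and Ccdc96 (-0.99). Of primary cilium genes, the BBSome gene Bbs1 differed by -0.94 and the transition zone gene Tmem231 by -0.89. Organ and library kit cannot be told apart in these differences. Groups of 3 libraries were too small to look for single outlying libraries.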

How the results depend on the processing

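Counts of calls moved with the choice of model and library. In the cochlea, 794 genes were called, 1532 with the replicate block and 546 to 801 with 1 library left out; of the members, 17 were called, 27 with the block and 12 to 16 with 1 library left out. In the vestibule, 546 genes were called, 3634 with the block, 358 with no filter, 863 without both replicate 1 libraries, 1234 by DESeq2 and 226 to 522 with 1 library left out. Of vestibular members, 1 was called, 25 with the block, 0 with no filter, 4 without both replicate 1 libraries, 4 by DESeq2 and 0 to 2 with 1 library left out. For the difference between organs, 461 genes were called, 1955 with the block, 815 by DESeq2, 280 without both cochlear replicate 3 libraries and 302 to 453 with 1 library left out; of the members, 15 were called, 26 with the block, 9 without both cochlear replicate 3 libraries and 7 to 14 with 1 library left out. Causes of these shifts were not tested. Fewer libraries enter the fits that leave some out. Without both cochlear replicate 3 libraries, Cfap43, Cfap45, Cfap53, Cfap57 and Dnaaf5 lost their cochlear calls. Using no filter cost Cfap57 its cochlear and Rsph4a its vestibular call. For the difference between organs, no filter cost Cfap53 and Cfap54 their calls. There a pseudocount of 0.25 also cost Cfap54 its call, and a pseudocount of 4 cost Cfap43 its call. Members that gained a call with the block are named in the results; the block ended no cochlear, vestibular or difference call of a member.

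Vestibular changes of some members that were not called crossed 0. With 1 library left out, Cfap43 (0.01) ranged from -0.0639 (without heterozygous replicate 1) to 0.103, with -0.00219 without heterozygous replicate 2, -0.0322 without mutant replicate 1, and -0.108 without both replicate 1 libraries. Cfap52 (0.04) ranged from -0.00499 to 0.0904, with -0.00369 without mutant replicate 1, and was at -0.0488 without both. Cfap57 (-0.19) ranged from -0.461 to 0.0264, Dnah11 (0.20) from -0.0389 to 0.433, and Dnaaf5 (0.13) from -0.0787 to 0.278, with -0.0137 without heterozygous replicate 2. Drc3 (-0.04) ranged from -0.108 to 0.00914, with 0.00366 without heterozygous replicate 3, and was at 0.00360 by edgeR. Values of low cochlear members are coarse, since 1 read was worth 0.107 to 0.133 CPM. Over 67 member results and 1149 recomputed values, 980 kept direction and call, 114 lost the call, 41 gained it and 14 changed sign.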

Other observations

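Several axonemal genes outside the families were also lower in the mutant cochlea. Spag6l, a central apparatus protein, was at 59.3, 47.7 and 56.0 CPM in the heterozygotes and 27.9, 22.5 and 23.7 CPM in the mutants, and at 141, 147 and 152 CPM and 181, 155 and 151 CPM in the vestibule. Its cochlear groups lay apart (-1.11 ± 0.15, limma adjusted p = 5.91e-04) and its vestibular groups overlapped (0.14, limma adjusted p = 0.641). Iqcg, a nexin complex subunit, was at 89.8, 75.2 and 75.8 CPM and 54.1, 50.1 and 46.3 CPM in the cochlea (-0.67, limma adjusted p = 0.00953). Ccdc96 was at 33.4, 27.4 and 36.4 CPM and 18.7, 13.8 and 13.2 CPM there (-1.05, limma adjusted p = 0.00446). In both genes every mutant cochlear library was below every heterozygous one. Wdr78, an axonemal dynein intermediate chain gene, was called at -0.79 (limma adjusted p = 0.0453) and Iqub at -0.82 (limma adjusted p = 0.0338), also with no overlap in the cochlea.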
